A study of Homo sapiens with 12 samples.

Results

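The genes of the proteins that share promoters with SREBP factors were examined in HCC70 cells, namely SP1 and SP3, the NF-Y subunits NFYA, NFYB and NFYC, and USF1 and USF2. These 7 genes, of 20083 annotated protein-coding genes, were chosen by name. A region of occupancy was assigned to a gene when it overlapped the window from 1 kb upstream to 100 bp downstream of any of its annotated transcript starts, the promoter window used throughout. Regions from 10 kb upstream to 10 kb downstream of each gene were described as well.

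HCC70 is an established triple-negative breast cancer line, kept as a culture of human tumour cells. Cells received vehicle or XY018, an antagonist of the nuclear receptor RORγ, for 24 h, and the labels give 5 µM for XY018, whereas the methods of the study give a lower dose. Chromatin was precipitated with antibodies to SREBP2, to RORγ or to H3K27ac, a histone mark of active promoters and enhancers, with 1 library for each antibody and treatment. The 6 precipitated libraries were used here, no comparison has a replicate check and no p-value is given.

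Depth, recovered from the region values, was 5.56 tags per kb of genome in the SREBP2 vehicle library and 5.92 with XY018. It lay between 3.65 and 6.16 tags per kb over all 6 libraries. Relative to vehicle, XY018 tags stood at 1.07 for SREBP2, at 0.905 for RORγ and at 0.913 for H3K27ac. H3K27ac promoter regions were found at 4 of 6 basal markers, KRT5, KRT17, TRIM29 and EGFR, and were absent at KRT14 and KRT6B. With vehicle EGFR had 231 fragments, TRIM29 39, KRT5 33 and KRT17 only 8. Of 6 luminal markers, GATA3 and FOXA1 had regions of 189 and 225 fragments with vehicle, GREB1 and ESR1 small ones of 13 and 10 fragments, and PGR and TFF1 none. Acetylated promoters were thus found at 4 of 6 markers of each kind with vehicle, against 66.8% of all protein-coding genes, and they do not measure expression.

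SREBP2 is a membrane-bound factor that is released when cell sterols are low and then switches on genes of cholesterol synthesis and uptake. By itself it activates weakly, and at many of its target promoters it works beside factors bound to neighbouring elements. SP1 and SP3 are zinc finger proteins that bind GC boxes, NF-Y is a trimer that binds the CCAAT box through NFYA on a histone-like pair of NFYB and NFYC, and USF1 and USF2 are basic helix-loop-helix leucine zipper proteins that bind E-boxes as dimers. The question here was whether the promoters of these partners themselves carried SREBP2, RORγ and acetylation, and how each signal differed with the antagonist.

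In hg19, SP1 (ENSG00000185591) lies at chr12:53773960-53810230 on the plus strand and SP3 (ENSG00000172845) at chr2:174745578-174830101 on the minus strand. The NF-Y genes are NFYA (ENSG00000001167) at chr6:41040713-41070142 (+), NFYB (ENSG00000120837) at chr12:104510864-104532019 (−) and NFYC (ENSG00000066136) at chr1:41157320-41237275 (+). USF1 (ENSG00000158773) lies at chr1:161009041-161015767 (−) and USF2 (ENSG00000105698) at chr19:35759865-35770724 (+).

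The DNA under the strongest SREBP2 summits with vehicle is shown first, since the partners are known by the elements they bind. Each window runs 100 bp to either side of the summit, is read 5′ to 3′ on the gene's strand from GRCh37, the same build as hg19, and has GC boxes (GGGCGG, on either strand, overlapping matches included) in capitals. The SP1 window lies in an intron of SP1 at chr12:53774159-53774359 (+), that of NFYA in an intron of NFYA at chr6:41041370-41041570 (+), and that of USF1 in an intron of USF1 at chr1:161015269-161015469 (−).
SP1: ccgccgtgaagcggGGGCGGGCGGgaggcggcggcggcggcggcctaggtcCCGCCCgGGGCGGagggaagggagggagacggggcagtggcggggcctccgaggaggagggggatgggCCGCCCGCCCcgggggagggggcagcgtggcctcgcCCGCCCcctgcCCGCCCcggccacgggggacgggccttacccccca
NFYA: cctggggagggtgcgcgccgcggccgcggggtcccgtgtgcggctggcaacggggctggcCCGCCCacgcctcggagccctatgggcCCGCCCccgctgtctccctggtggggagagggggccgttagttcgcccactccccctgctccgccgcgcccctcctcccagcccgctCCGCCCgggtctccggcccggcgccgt
USF1: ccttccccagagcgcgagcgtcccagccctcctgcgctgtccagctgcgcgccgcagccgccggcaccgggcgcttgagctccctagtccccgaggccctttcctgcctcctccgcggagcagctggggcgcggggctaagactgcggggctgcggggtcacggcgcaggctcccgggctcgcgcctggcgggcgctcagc
The SP1 window held 8 GC boxes, and at least 8 were found in 0.228% of the windows at all 23199 SREBP2 vehicle promoter regions. NFYA held 3, as did the windows of SP3 and NFYB, and 14.3% of all windows held at least 3. USF1 held none.

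The CCAAT box, the element of NF-Y itself, was found under a SREBP2 summit at NFYC alone among the 7 genes. Its window in an untranslated exon held 3 matches, against 0.116% of all windows with at least 3, and no GC box. A stretch at chr1:41157746-41157775 (+) shows one of the matches in capitals, where ATTGG is CCAAT read on the other strand.
NFYC stretch: cggcccggcccgcgggctttctcccATTGG
Counted over all 10 SREBP2 vehicle promoter regions of the 7 genes, the GC box was present in 6, against 57.3% of all such regions. CCAAT was present in 1, against 9.16%. The cut-off of 3 matches at NFYC was the count observed there. The window of its SREBP2 summit with XY018, 77 bp away, held 1 match. Neither the E-box of the USF proteins (CACGTG), found in 5.39% of all regions, nor the sterol element TCACNCCAC, found in 0.974%, was present in any of the 10. The GC content of the windows ran from 66.2% to 84.1%, and the median over all regions was 71.6%. These are matches of letters within these windows and say nothing of which protein was bound.

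Nearly all of the 7 promoters were marked by all 3 antibodies in vehicle-treated cells. SREBP2 regions were called at 7 of 7 genes with vehicle, against 70.6% of all protein-coding genes. With XY018 they were called at 6 of 7, against 62.7%, and NFYA was the gene left out. The NFYA region was still present with XY018 at chr6:41040832-41041599, but it began just downstream of the promoter window. RORγ regions were called at 6 of 7 genes with vehicle, against 62.7% of all genes, and at 6 of 7 with XY018, against 61.5%. NFYA lacked a call with vehicle, again because its region began beyond the window, at chr6:41040852-41041568. SP1 lacked one with XY018, and there no region lay within 1 kb to either side of its starts. H3K27ac regions were called at 7 of 7 genes under both treatments, against 66.8% of all genes with vehicle and 68% with XY018. Both factors were called at 6 of 7 promoters with vehicle, against 60.3%.

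These shares were therefore near or somewhat above those of protein-coding genes in general, and genes differ in how many windows they offer. The 7 genes had between 2 (NFYA) and 23 (NFYC) annotated starts, and the median over all genes was 5. With windows at the canonical start alone, SREBP2 was called at 6 of the 7 genes with vehicle, against 64.5% of all genes, and at 4 with XY018, against 56.1%. RORγ was called at 3 under each treatment, against 53.9% with vehicle and 52.6% with XY018. Both factors were called at 3 with vehicle, against 52%, so the RORγ counts fell below the general share in these windows.

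The SREBP2 signal was compared next, as the number of fragments stacked at the summit of each gene's promoter region. In the vehicle library SP1 had 21 fragments (exact Poisson 95% interval 13.0 to 32.1) and SP3 had 26 (17.0 to 38.1). The NF-Y subunits had 47 at NFYA (34.5 to 62.5), 30 at NFYB (20.2 to 42.8) and 33 at NFYC (22.7 to 46.3). USF1 had 40 (28.6 to 54.5) and USF2 had 42 (30.3 to 56.8). NFYA thus ranked first, followed by USF2, USF1, NFYC, NFYB, SP3 and SP1. Neighbours in this order had overlapping intervals, whereas those of NFYA and SP1 did not overlap. Among the 12561 genes with paired SREBP2 promoter regions, the 7 genes lay between the 18.8th percentile (SP1) and the 78.4th (NFYA), and their median of 33 fragments was near the 32 of all paired genes. These intervals cover counting error only.

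With XY018 every one of the 7 promoters had fewer SREBP2 fragments. The numbers were 15 at SP1, 21 at SP3, 21 at NFYA, 22 at NFYB, 30 at NFYC, 24 at USF1 and 27 at USF2. NFYC was then the highest and SP1 the lowest, and the intervals of all 7 overlapped.

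**Figure D1:**
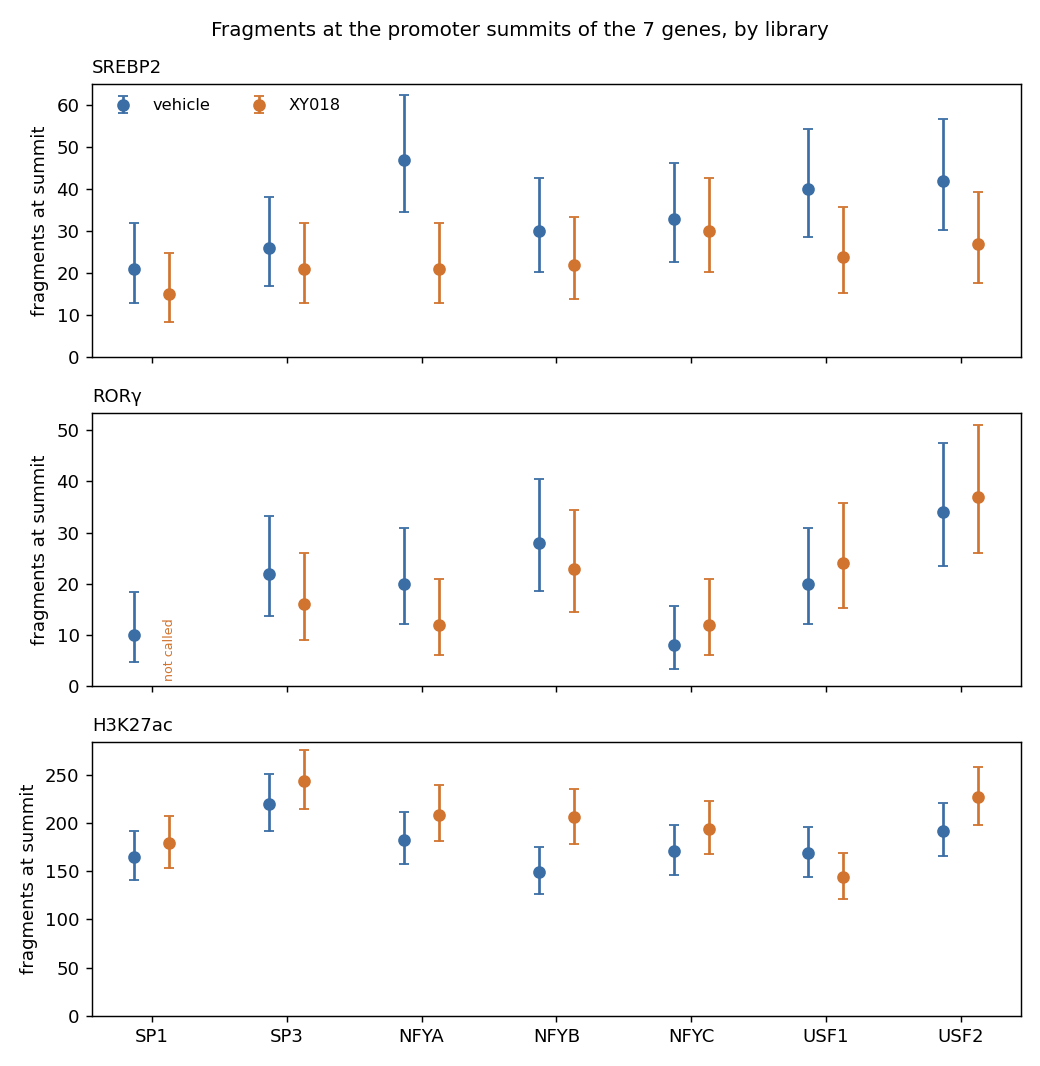
Fragments at the summit of the promoter region of each gene (y axis, starting at 0) for SREBP2, RORγ and H3K27ac, in the vehicle and XY018 libraries. Points are single libraries and bars are exact Poisson 95% intervals. The SREBP2 points with XY018 lie below those with vehicle at all 7 genes, by the most at NFYA (47 and 21 fragments), whereas H3K27ac lies higher at all but USF1 (169 and 144).

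To set libraries of unequal depth side by side, fragments were divided by the genome-wide background of their library, for SREBP2 1.03 fragments in the vehicle and 1.21 in the XY018 library. The XY018 to vehicle ratio was lowest at NFYA, 0.378 (interval 0.215 to 0.646). It was 0.508 at USF1 (0.293 to 0.864) and 0.544 at USF2 (0.323 to 0.904). At USF2 the highest points lay 1218 bp apart inside 1 long region, so its ratio compares different places. The ratio was 0.605 at SP1 (0.290 to 1.23), 0.621 at NFYB (0.341 to 1.11) and 0.684 at SP3 (0.366 to 1.26), and it was highest at NFYC, 0.770 (0.454 to 1.30). For 3 genes, NFYA, USF1 and USF2, the interval lay wholly below 1, and for the other 4 it reached above 1. All 7 intervals overlapped one another, so no order among the genes was resolved.

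The lower SREBP2 signal at the 7 genes was close to that of promoters in general. The ratio was below 1 at 7 of 7 genes, against 98.1% of all paired promoters. The median ratio was 0.605 over the 7 genes and 0.621 over all paired genes, whose interquartile range was 0.524 to 0.721. Among the 7673 genes with as many vehicle fragments as the 7 genes (21 to 47), the median was 0.613. NFYA and USF1, below the interquartile range, and NFYC, above it, had intervals that included the median of all genes. Summed over the 7 genes, SREBP2 fragments numbered 239 with vehicle and 160 with XY018, a ratio of 0.567 (0.461 to 0.695).

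The 2 SREBP2 libraries also differed in fragment length, 185 bp with vehicle and 205 bp with XY018, and dividing by tags per kb in place of background moved every SREBP2 ratio by 0.15 on the log2 scale toward 1. By tags the ratio was below 1 at 7 of 7 genes, against 95.2% of all paired promoters. The median was 0.670 over the 7 genes and 0.688 over all, and the interval of USF2 then reached 1.0 (0.358 to 1.0), which left NFYA and USF1 wholly below 1.

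**Figure D2:**
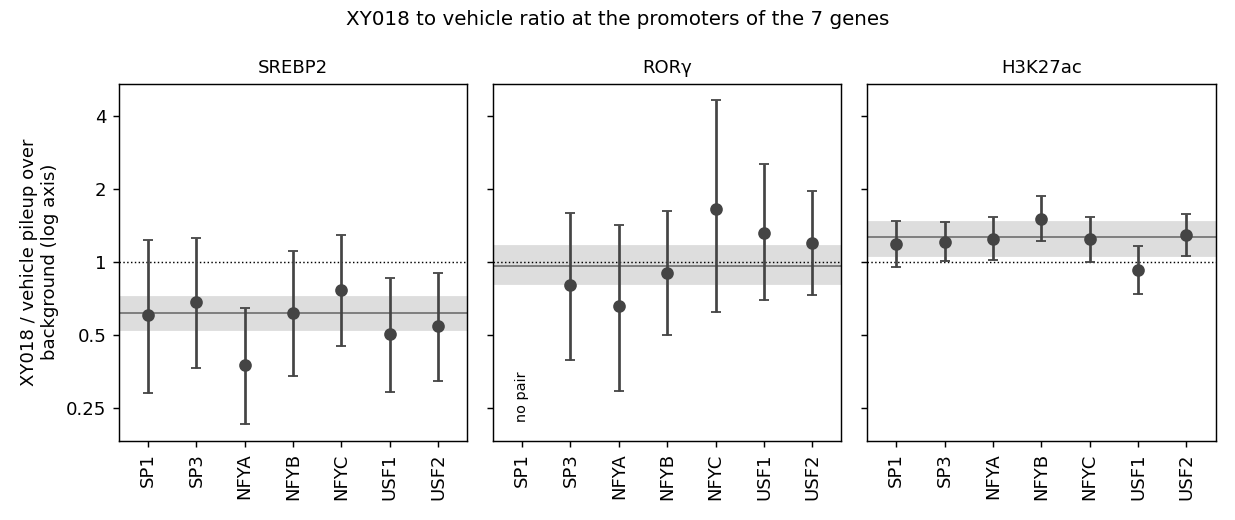
XY018 to vehicle ratio of the summit pileup over background at each gene's promoter (log axis), for SREBP2, RORγ and H3K27ac. Bars are 95% intervals from counting error, the grey line and band give the median and interquartile range of all paired protein-coding genes, and the dotted line marks 1. SREBP2 ratios lie below 1 (0.378 to 0.770), RORγ ratios lie on both sides, and H3K27ac ratios lie above 1 except at USF1 (0.933).

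RORγ, the target of the antagonist, showed no common direction at these promoters. SP3 had 22 fragments with vehicle and 16 with XY018, a ratio of 0.804 (0.395 to 1.60). NFYB had 28 and 23, a ratio of 0.908 (0.50 to 1.63), and NFYC had 8 and 12, a ratio of 1.66 (0.623 to 4.68). USF1 had 20 and 24 (1.33, 0.702 to 2.53) and USF2 had 34 and 37 (1.2, 0.734 to 1.98). All of these intervals included 1, so neither a gain nor a loss was resolved at this depth.

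At NFYA and SP1 the values depended on the promoter windows. At NFYA the only XY018 region inside the promoter window had 12 fragments, with its summit 226 bp downstream of the canonical start, and it was paired with a vehicle region of 20 fragments whose summit lay at 691 bp, for a ratio of 0.663 (0.296 to 1.42). A separate XY018 region just downstream had 19 fragments at 681 bp. Pairing within 1 kb to either side of the starts, an alternative chosen after the data were seen, set 20 against 19 fragments, a ratio of 1.05 (0.530 to 2.07). SP1 had a region of 10 fragments with vehicle (4.80 to 18.4) and none called with XY018, where regions at the genome-wide background had been called with as few as 3 fragments. Without a called region its XY018 level is unknown.

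Over the 6 paired genes the median RORγ ratio was 1.06, against 0.967 over all paired genes, and 3 of 6 were below 1, against 54.8% of all paired promoters. Under other pairings this median ran from 0.856 to 1.26. Summed over the 6 genes, RORγ fragments were 132 with vehicle and 124 with XY018, a ratio of 1.04 (0.806 to 1.34). With vehicle the 6 genes stood between the 5.34th percentile (NFYC) and the 64.7th (USF2) of paired genes.

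Acetylation was high at all 7 promoters. With vehicle H3K27ac had 165 fragments at SP1 and 220 at SP3. It had 183 at NFYA, 149 at NFYB and 171 at NFYC, and 169 at USF1 and 192 at USF2. Each of the 7 genes exceeded the median of 63 fragments over all paired genes, and they stood between the 86.5th percentile (NFYB) and the 97.7th (SP3). For SREBP2, by comparison, 4 of 7 exceeded the median of all paired genes, and for RORγ 2 of the 6 paired ones.

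With XY018 the H3K27ac fragments were 179 at SP1, 244 at SP3, 209 at NFYA, 206 at NFYB, 194 at NFYC and 227 at USF2. USF1 went the other way, with 144. The ratio was highest at NFYB, 1.51 (1.22 to 1.88), and lowest at USF1, 0.933 (0.742 to 1.17), and these intervals did not overlap. It was 1.30 at USF2 (1.06 to 1.58), 1.25 at NFYA (1.02 to 1.53), 1.24 at NFYC (1.01 to 1.54), 1.22 at SP3 (1.01 to 1.46) and 1.19 at SP1 (0.956 to 1.48). The interval lay wholly above 1 for 5 genes and included 1 for SP1 and USF1.

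The median of these values too was close to that of all promoters. H3K27ac was lower with XY018 at 1 of 7 genes, against 19.6% of all paired promoters. The median ratio was 1.24 over the 7 genes and 1.27 over all, with an interquartile range of 1.06 to 1.47, and 1.31 over the 1461 genes with 149 to 220 vehicle fragments. USF1 lay below the interquartile range and its interval excluded the median of all genes. NFYB lay above the range, and its interval included that median. Summed over the 7 genes, H3K27ac fragments were 1249 with vehicle and 1403 with XY018, a ratio of 1.23 (1.14 to 1.33). Lower SREBP2 together with higher H3K27ac was seen at 6 of 7 genes, against 83.1% of promoters with both pairs.

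Regions, as distinct from heights, were largely kept. All 10 SREBP2 vehicle promoter regions of the 7 genes overlapped an XY018 region (exact binomial 95% interval 69.2% to 100%), against 74% of all SREBP2 promoter regions. RORγ regions were kept in 9 of 12 cases (42.8% to 94.5%), against 78.6%. These intervals treat regions as independent, though some genes had several, and do not cover differences between libraries. The RORγ regions without an XY018 partner had 10 fragments at SP1, 6 at SP3 and 6 at an internal start of NFYC. The kept ones had 7 to 34 fragments, with a median of 11, a range that includes the 10 at SP1. H3K27ac regions were kept in 9 of 12 cases, against 86.9%, and the others had 10 to 14 fragments and lay at internal starts of NFYC, USF1 and USF2.

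Several genes had a second SREBP2 region. At NFYB it lay 212 bp upstream of the canonical start, with 6 GC boxes and 13 fragments under both treatments. At SP3 it lay 288 bp upstream, with 11 fragments with vehicle and 9 with XY018. At USF2 it lay at an internal start 8036 bp downstream, with 20 and 14 fragments. None of these second regions matched or exceeded the main one of its gene.

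Position relative to the canonical start was examined next. The strongest SREBP2 summit with vehicle lay downstream of the canonical start at 7 of 7 genes, against 67.1% of all genes with a region. With XY018 it did so at 5 of 6 genes, against 67.7%. The distances were 299 bp at SP1, 389 bp at SP3, 391 bp at NFYC, 398 bp at USF1, 600 bp at NFYB, 757 bp at NFYA and 992 bp at USF2, and the median over all genes was 152 bp. The summits of SP1, SP3, NFYA and USF1 fell in introns, those of NFYB and NFYC in untranslated exons and that of USF2 in a coding exon. Some lay upstream of another annotated start of the same gene. Distances from the nearest start were −164 bp at SP1, −99 bp at SP3 and −309 bp at USF2. They were 82 bp at NFYC, 294 bp at USF1, 407 bp at NFYB and 748 bp at NFYA.

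The antibodies pointed to the same places at most of these genes. Distances between summits were not computed over all promoters, so whether this is particular to these genes is not known. At 6 of the 7 genes the nearest RORγ vehicle summit was 30 to 66 bp from the SREBP2 one, and the nearest H3K27ac vehicle summit 10 to 76 bp. USF2 was the exception, at 639 and 1219 bp, where a single SREBP2 region of 2162 bp covered the promoter. At those 6 genes the SREBP2 summit with XY018 lay 15 to 124 bp from the one with vehicle. The window upstream of the canonical start alone would therefore have missed the summits of most of these genes.

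**Figure D3:**
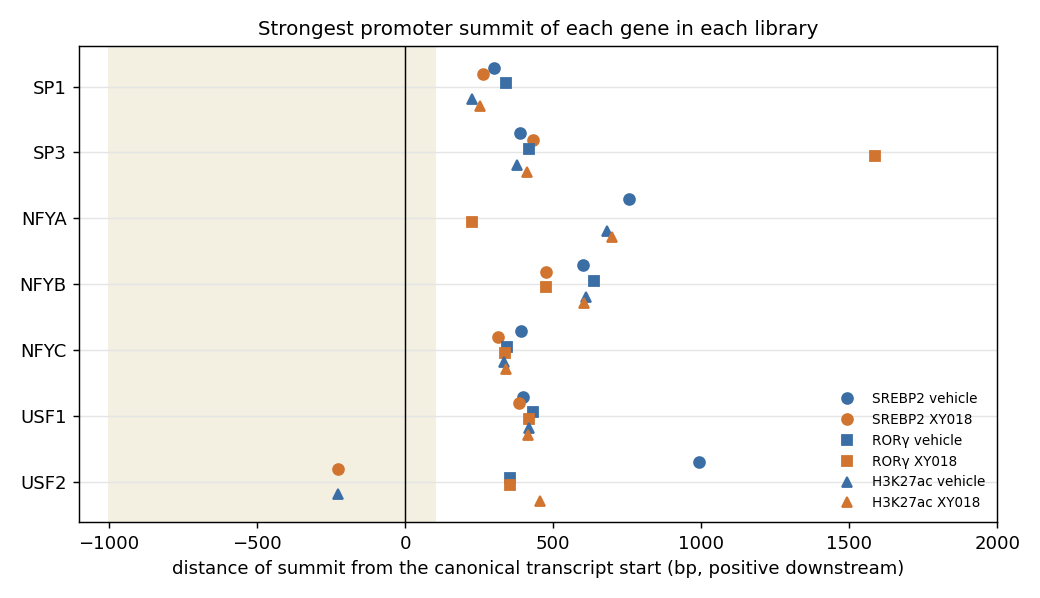
Distance of the strongest promoter summit from the canonical transcript start (x axis, bp, positive downstream) for each gene and library. The shaded band is the window from 1000 bp upstream to 100 bp downstream of that start, symbols mark the antibody and colours the treatment, and a gene without a symbol had no region in its promoter windows. At SP1, NFYB, NFYC and USF1 the summits fall together downstream of the band, those of USF2 are spread between −227 and 992 bp, and for RORγ with XY018 the summit of SP3 lies at 1588 bp.

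The wider surroundings of the 7 genes were then counted. Within 10 kb of the genes SREBP2 had 31 regions in the vehicle list and 18 in the XY018 list, 41.9% fewer, and the whole lists differed by 40.7%. The length they covered was 14.4 kb with vehicle and 10.8 kb with XY018. RORγ regions numbered 35 and 22, 37.1% fewer against 22.3% over the whole lists, and covered 14.2 and 9.92 kb. H3K27ac regions numbered 53 and 64, 20.8% more against 10.8% over the whole lists, and covered 44.3 and 43.5 kb. At q of at most 1e-05 there were 43 H3K27ac regions under each treatment, and 12 RORγ regions with vehicle beside 14 with XY018. SREBP2 regions then numbered 18 with vehicle and 14 with XY018, so the size of each difference depended on the threshold.

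The regions that were not found again were weaker in the median, though the ranges overlapped. For SREBP2 with vehicle, outside the promoter windows, they had 5 to 18 fragments, and those found again had 9 to 47. Of the 21 SREBP2 vehicle regions outside the promoter windows, 7 overlapped an XY018 region and had a median of 21 fragments, and 14 did not and had a median of 8 fragments. For RORγ, 6 of 23 such regions overlapped, with a median of 23.5 fragments, and the 17 others had a median of 6. Of the 18 SREBP2 XY018 regions, 17 overlapped a vehicle one, which is 94.4%, against 54.8% of the 31 vehicle regions. Such shares were not computed over all regions of the lists, so whether they are particular to these loci is not known. The NFYC locus had 7 SREBP2 regions with vehicle and 3 with XY018, USF2 had 9 and 5, and SP1 had 4 and 1. For RORγ, NFYC had 10 and 2 regions, SP1 and SP3 each had 6 and 2, and USF2 had 7 and 9.

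Outside the promoters, 4 sites carried both factors under both treatments, and they were singled out after their values were seen. The first lay near the 3′ end of NFYA, in an untranslated exon at chr6:41068595-41069084, 1321 bp before the end of the gene. SREBP2 had 43 fragments there with vehicle and 33 with XY018, and RORγ had 49 and 37. That RORγ signal was above the 20 fragments at the NFYA promoter, whereas H3K27ac had 15 and 10 fragments against 183 and 209 at the promoter. The SREBP2 ratio was 0.650 (0.40 to 1.05) and the RORγ ratio 0.835 (0.530 to 1.31).

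The second lay at the 3′ end of USF2, in a coding exon at chr19:35769666-35770357, 589 bp before the end of the gene and 1017 bp downstream of an internal start. SREBP2 had 47 fragments with vehicle, the most of any region near USF2, and 28 with XY018, a ratio of 0.504 (0.304 to 0.822). RORγ had 36 and 33, a ratio of 1.01 (0.612 to 1.67), and H3K27ac had 19 and 14. As at NFYA, factor signal at the level of the promoter stood beside little acetylation.

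The third lay downstream of USF1 at chr1:160999247-160999691, nearest to a start of F11R, 8383 bp away. SREBP2 had 21 and 14 fragments, RORγ 25 and 23, and H3K27ac 18 and 17. Its window held 5 GC boxes, and those of the NFYA and USF2 3′ sites held 0 and 1. The fourth, upstream of USF2 at chr19:35758018-35758335, lay 767 bp downstream of a start of LSR, a neighbouring gene, within the same long H3K27ac region as the USF2 promoter. SREBP2 had 35 and 23 fragments there and RORγ 22 and 27. At all 4 sites the SREBP2 ratio was below 1, between 0.504 and 0.650.

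Outside the promoter windows the histone mark had more regions than either factor. It had 41 with vehicle, against 21 of SREBP2 and 23 of RORγ, and 52 with XY018, against 9 and 12. The strongest near SP1 was an H3K27ac region 9600 bp upstream, at chr12:53763968-53764974, with 44 fragments with vehicle and 30 with XY018. Near USF1 it was the promoter of TSTD1 at chr1:161007913-161008911, with 56 and 38, lower with XY018 as at USF1 itself. Near SP3 it lay 2175 bp upstream at chr2:174831720-174832610, with 18 and 17 fragments. Near NFYC it lay 3396 bp downstream of the canonical start at chr1:41160626-41160950, in an intron, with 24 fragments with vehicle and 11 in the overlapping XY018 region. These sites were strongest with vehicle, a choice that favours lower values with XY018. Chosen by XY018 fragments, the H3K27ac site near NFYC was chr1:41216993-41217424, with 20 fragments with vehicle and 23 with XY018. Near USF2 it was chr19:35763077-35763804, with 16 and 28. At SP1, SP3 and USF1 that choice overlapped the same site. NFYB had no factor region outside its promoter, and its strongest H3K27ac region there, at chr12:104527489-104527832 and nearest to a start of NFYB, had 11 fragments and was called with XY018.

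**Figure D4:**
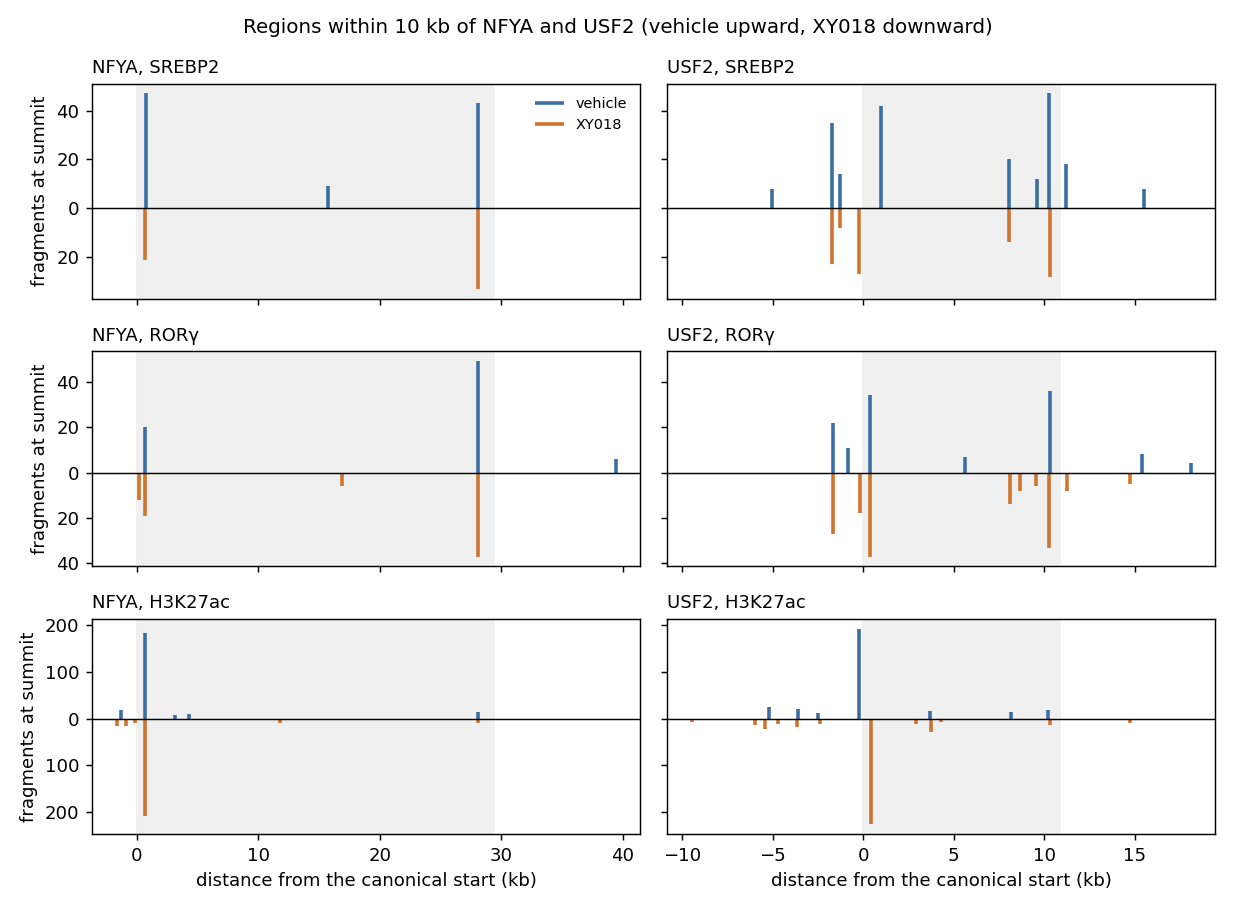
Regions within 10 kb of NFYA and USF2, drawn at their summits (x axis, kb from the canonical start, gene body shaded), with fragments at the summit upward for vehicle and downward for XY018. SREBP2 and RORγ have a second tall region near the end of each gene, with 43 and 49 fragments at NFYA and 47 and 36 at USF2 with vehicle, where H3K27ac has 15 and 19.

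Some of these promoters serve other genes too, and the libraries cannot assign a shared region to one of them. The promoter regions of NFYA overlapped windows of OARD1, on the other strand, in 4 libraries, and those of NFYC overlapped NFYC-AS1, an antisense RNA, in all 6. Regions of SP3, USF1 and USF2 also overlapped windows of unnamed long non-coding RNAs.

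The remaining SP family members and USF3 served as relatives of the 7 genes. Of these 8 genes, 7 had SREBP2 promoter regions under both treatments, against 70.6% of all genes with vehicle and 62.7% with XY018, and SP7 had none. RORγ was called at 7 with vehicle, against 62.7%, and at 6 with XY018, against 61.5%. SP2, with 8 fragments in the vehicle library, was the one called for RORγ with vehicle alone. SP7 had no RORγ region in either. H3K27ac was called at 5, against 66.8% of all genes with vehicle and 68% with XY018, and not at SP5, SP8 or SP9. SP8, chosen after its values were seen, had more SREBP2 and RORγ fragments with vehicle than any promoter of the 7 genes, 56 and 70, beside no H3K27ac region. USF3 also exceeded the 7 genes, with 54 and 42 fragments, but had 178 H3K27ac fragments with vehicle. The median ratios of the relatives were 0.612 for SREBP2 (7 of 7 below 1), 0.737 for RORγ (5 of 5) and 1.21 for H3K27ac (1 of 5, SP4, with 118 and 72 fragments). Of all paired promoters 98.1% were below 1 for SREBP2, 54.8% for RORγ and 19.6% for H3K27ac.

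A list of 8 further partners and coactivators of SREBP factors (CREB1, ATF1, CREBBP, EP300, MED15, MED14, NCOA1 and CARM1) had promoter regions in all 6 libraries. Depending on the library, 61.5% to 70.6% of all protein-coding genes had one. The SREBP2 ratio of the list was below 1 at 8 of 8 genes, against 98.1% of all paired promoters, with a median of 0.682. That of RORγ was below 1 at 5 of 8, against 54.8%, with a median of 0.977. That of H3K27ac was below 1 at none, against 19.6%, with a median of 1.45 beside 1.24 for the 7 genes and 1.27 for all.

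Likeness was measured over the promoter levels of all 6 libraries, on a log2 scale over background, as the distance of each of 9404 genes to the median of the 6 genes with all pairs. The nearest were UGCG, at 0.245, ARHGAP5, at 0.269, and KCMF1, at 0.275. The genes themselves were farther from their own median, at 0.620 for NFYB, 0.644 for USF1, 0.690 for SP3, 0.787 for NFYA, 1.23 for USF2 and 1.60 for NFYC. Over the 9398 other genes the median distance was 2.22, with an interquartile range of 1.44 to 3.48. The median was made from these 6 genes, so their distances are not independent of it. SP1, without a RORγ pair, has no distance.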

How the data were processed

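Peak lists of 6 ChIP-seq libraries (SREBP2, RORγ and H3K27ac, each with vehicle or XY018) were used, and the 6 inputs were not used here. The methods describe BWA alignment against hg19 and removal of duplicate and multiply placed tags, whereas the submitters' processing notes name Bowtie2, MACS2 2.1.0 and bedtools. The lists held 69700 to 167264 regions. The fold enrichment, a ratio of summit pileup plus 1 to local background plus 1, and the −log10 p and −log10 q values were deposited by the authors for each region of 1 library. The H3K27ac lists were numbered with gaps, so a region missing there may have been called and left out. Their selection rule was not stated in the methods or labels.

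Fragments at the summit were recovered from fold and −log10 p under the Poisson model of MACS2, and all but 1 region came out whole within 5% of the step between neighbouring whole numbers. The steps were tested on simulated data. The commonest local background served as the genome-wide one, and divided by fragment length (the smallest region width) it gave tags per kb. For each gene, the overlapping vehicle and XY018 regions with the highest summed pileup, at least 1 of them in a promoter window, were paired. Genes came from GENCODE 44 lifted to GRCh37, leaving out 15 with a shared symbol. The 4 motifs were searched on both strands. Intervals are exact Poisson or exact binomial (Clopper-Pearson) 95% intervals of counting error, except that those of shares of regions kept treat regions as independent draws. With 1 library per group no test was made.

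The genes, lists, markers and rules for naming genes (all 7, the strongest region outside each promoter and the 3 most alike genes) were chosen with earlier results of these data known. Alternatives were other windows, thresholds, overlaps, scalings and pairings. Python 3.11.15, numpy 2.4.6, pandas 2.3.3, scipy 1.17.1 and pysam 0.24.0 were used.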

Additional observations from a re-analysis of the deposited data

How the results depend on the processing

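Of 82 alternative values, 70 were classed as the same as the value given and 12 as moved, and the first class still covered sizeable shifts. With canonical starts only, RORγ was called at 3 of the 7 genes with vehicle and at 3 with XY018, and both factors at 3. The share of RORγ promoter regions kept was 41.7% in place of 75% when summits had to lie within 100 bp. That of H3K27ac regions was 50% in place of 75%, a shift classed as the same. Without the 10 kb flanks, SREBP2 regions numbered 19 with vehicle and 10 with XY018, and H3K27ac regions 32 and 35. At q of at most 0.01 there were 22 RORγ vehicle regions. At q of at most 1e-05 there were 18 SREBP2 regions with vehicle and 14 with XY018. RORγ then had 12 with vehicle against 14 with XY018, so the order of the RORγ counts depended on the threshold. The median RORγ ratio at promoters ran from 0.856 to 1.26 with the pairing chosen, on both sides of 1. With 8 to 34 vehicle fragments all 6 RORγ intervals included 1, as did 4 of 7 for SREBP2, and an effect of depth was not tested. No paired analysis was possible because each group had 1 library and the result comes from no test.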
